A study of Mus musculus with 4 samples.

Results

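Occupancy by RYBP was examined at 34 autosomal genes of fibroblast growth factor (FGF) signalling, chosen by name from the 21275 autosomal protein-coding genes of the mm9 GENCODE annotation. They comprised 20 FGF ligands, 4 FGF receptors and 10 feedback regulators and response genes (Spry1, Spry2, Spry4, Spred1, Spred2, Spred3, Etv4, Etv5, Dusp6 and Il17rd). Each locus took in the gene body and the 5 kb before it, and a start site counted as occupied when a region or peak lay within 2.5 kb of any annotated start of a protein-coding transcript.

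The series held 2 chromatin immunoprecipitation sequencing (ChIP-seq) samples and 2 inputs, all from wild type embryonic stem cells of C57Bl/6 X Sv129 background, differentiated as embryoid bodies and selected for FLK1, a surface receptor of mesoderm that gives blood and endothelium. The stage in the labels was day 3.75, while the methods of the study name a slightly later day for RYBP, and the design text adds that cells were PDGFRa-. The antibody was raised against DEDAF, another name of RYBP, although the design text speaks of SCL. Both ChIP samples are described as independent differentiations, and there was no mutant or treated group, so that no comparison between conditions, no test of RYBP dependence and no expression value could be drawn from these files.

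RYBP is a subunit of non-canonical Polycomb repressive complex 1, which places ubiquitin on histone H2A, and Polycomb complexes are known to gather at CpG-rich start sites of developmental genes. FGF ligands bind receptor tyrosine kinases at the cell surface, with heparan sulphate as a cofactor, and activate the Ras-ERK cascade. ERK in turn induces its own brakes: Sprouty and Spred proteins act on Ras and Raf, Dusp6 removes phosphate from ERK, and Il17rd (Sef) restrains the pathway at the membrane. In the gastrulating embryo FGF signalling is required for mesoderm to leave the primitive streak.

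Peaks had been called in each replicate alone, 14794 in replicate 1 and 18154 in replicate 2, and the merged list of 22409 regions was their union, of which 9901 (44.2%) held peaks of both replicates. Fold enrichment and −log10 q are therefore given by replicate, while widths and covered lengths are those of the union unless a replicate is named. A region is said to be in both replicates only when each list had a peak in it. Fold enrichment is the authors' linear ratio of the ChIP pile-up to local background, and −log10 q is the significance their caller gave to the peak. A locus with no peak has no value, and the lists hold no read counts. The study lists more mapped reads for replicate 1, the ChIP sample with fewer peaks, than for replicate 2.

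The sequences at the start sites that carry the findings are shown first. For ligands and feedback regulators the window belongs to the occupied start with the largest −log10 q when the smaller of both replicates is taken, and Fgf23 was the first ligand by name that could be shown without a region at its start. Fgf12 was added after its values were seen, since it had the highest fold enrichment of any member start. Each window runs from 250 bases before the start site to 30 bases from the start on, on the strand of the gene in mm9, and capitals mark CpG dinucleotides.
Spred1, chr2:116946860-116947139, plus strand: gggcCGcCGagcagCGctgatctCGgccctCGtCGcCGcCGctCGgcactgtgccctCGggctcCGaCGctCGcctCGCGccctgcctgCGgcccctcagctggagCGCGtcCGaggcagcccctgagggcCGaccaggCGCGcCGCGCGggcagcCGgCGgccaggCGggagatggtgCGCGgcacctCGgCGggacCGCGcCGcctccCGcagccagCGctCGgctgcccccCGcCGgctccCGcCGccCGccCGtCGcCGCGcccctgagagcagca
Fgf20, chr8:41393656-41393935, minus strand: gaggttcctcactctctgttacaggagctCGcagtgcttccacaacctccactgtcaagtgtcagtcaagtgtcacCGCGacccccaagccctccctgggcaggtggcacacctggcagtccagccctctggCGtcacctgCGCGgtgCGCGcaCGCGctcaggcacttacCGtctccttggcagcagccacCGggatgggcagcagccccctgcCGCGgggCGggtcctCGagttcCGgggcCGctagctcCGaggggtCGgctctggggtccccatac
Fgf12, chr16:28445284-28445563, minus strand: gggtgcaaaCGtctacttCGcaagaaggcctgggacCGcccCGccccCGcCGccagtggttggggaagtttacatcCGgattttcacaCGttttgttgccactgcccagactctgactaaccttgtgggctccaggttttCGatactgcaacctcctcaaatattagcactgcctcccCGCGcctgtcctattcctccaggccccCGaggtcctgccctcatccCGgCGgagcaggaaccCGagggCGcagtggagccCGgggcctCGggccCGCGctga
Fgf23, chr6:127022670-127022949, plus strand: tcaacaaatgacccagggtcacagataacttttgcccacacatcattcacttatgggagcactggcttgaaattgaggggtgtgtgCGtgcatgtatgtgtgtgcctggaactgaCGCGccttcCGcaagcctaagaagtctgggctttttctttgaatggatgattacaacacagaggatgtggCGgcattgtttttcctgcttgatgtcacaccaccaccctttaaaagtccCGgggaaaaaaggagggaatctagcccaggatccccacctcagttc
The Spred1 window held 47 CpG in 280 bases, against 20 for Fgf20 and 20 for Fgf12. Fgf23, the unoccupied start, held 6. Its G and C content was 49.3%, against 81.8% for Spred1. Part of the Fgf20 window is also an exon of Efha2, a neighbour on the opposite strand.

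A merged RYBP region was found at 31 of 34 loci (91.2%, exact 95% binomial interval 76.3 to 98.1%), against 58.7% of all autosomal protein-coding loci. The region was in both replicates at 29 of 34 loci (85.3%), against 40.1% of all. All 4 receptors and all 10 feedback regulators had a region in both replicates, as did 15 of 20 ligands (75.0%). Of these 15, Fgf17 had no replicate 1 peak within its locus, since the replicate 1 part of its region lay outside. The 5 remaining ligands were Fgf1, Fgf6 and Fgf7, which had no region, and Fgf14 and Fgf22, whose regions rested on 1 replicate. The intervals of the classes overlapped widely, from 62.1 to 96.8% for any region at ligands and from 39.8 to 100% at receptors, and cover counting error only. The members were chosen with results of these data known and belong to 1 group with 2 replicates, so the shares are set side by side and were not tested.

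Start sites gave the same order. A region lay within 2.5 kb of a start at 30 of 34 members (88.2%), against 54.9% of all autosomal genes, and peaks of both replicates did so at 28 of 34 (82.4%), against 38.7%. All receptors and feedback regulators were again included, with 14 of 20 ligands (70.0%). At Fgf22, however, the peaks of the replicates did not overlap, the one of replicate 1 (fold enrichment 3.04) lying past the end of the gene and the one of replicate 2 (3.25) at the start.

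**Figure D1:**
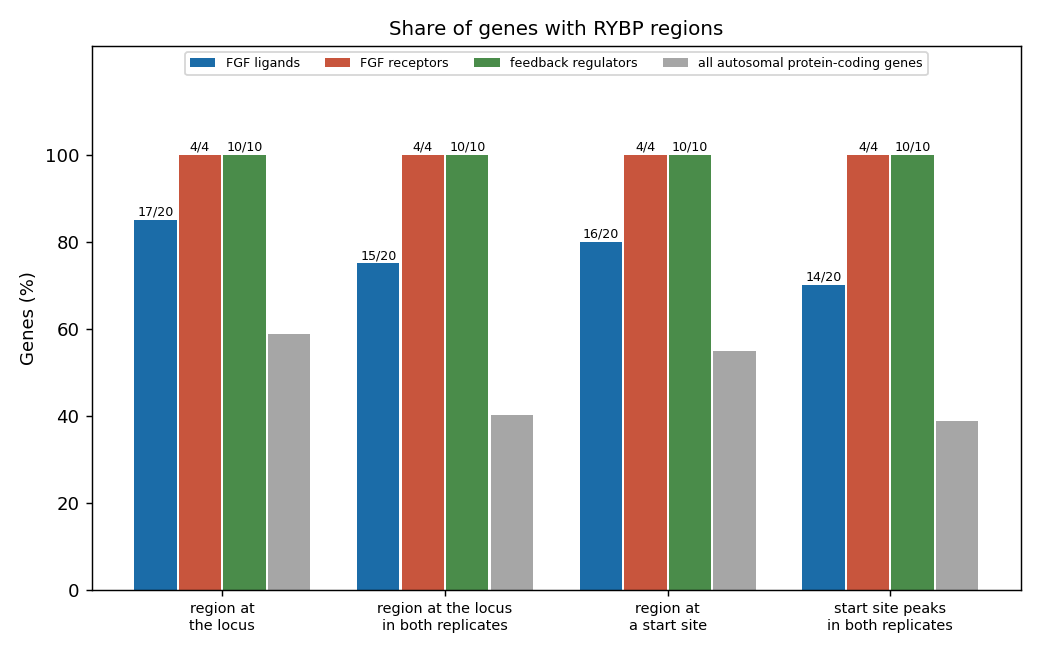
Share of genes (%, vertical axis) with a RYBP region or peak under 4 rules, for ligands (blue), receptors (red), feedback regulators (green) and all 21275 autosomal protein-coding genes (grey), with member counts over the bars. Receptors and feedback regulators stand at 100% under each rule, and ligands lie between 70.0% and 85.0%, above the grey bars at 38.7% to 58.7%.

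Of all autosomal genes with a start region, 92.0% had a CpG-rich start, and the counts were therefore read against genes of that kind. A start was called CpG-rich when the 500 bp to either side of it held 3 or more CpG per 100 bp. Of the members, 29 of 34 (85.3%) had one, against 60.7% of all autosomal genes. Among these 29, 28 (96.6%) had a start region and 26 (89.7%) had peaks of both replicates, against 83.1% and 60.5% of all autosomal genes with a CpG-rich start. The distance to the background was thus smaller for any region (96.6% against 83.1%) than for peaks of both replicates. By class, 15 of 16 ligands with a CpG-rich start (93.8%) had a start region and 13 of 16 (81.2%) had peaks of both replicates. All 4 receptors and all 9 feedback regulators with such a start had peaks of both. The CpG-poor members were Fgf1, Fgf7, Fgf21, Fgf23 and Spred3, of which Fgf21 and Spred3 had start peaks of both replicates, while 5.08% of all autosomal genes with a CpG-poor start did.

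Members without a start region were all ligands and lay low on the CpG scale. Fgf23 had 1.10 CpG per 100 bp, Fgf1 1.60, Fgf7 2.00 and Fgf6 3.30, against a median of 7.24 at the 30 members with a start region. Fgf6, a ligand known from muscle, was the only CpG-rich member without one. Fgf17 and Fgf14, with start regions in 1 replicate alone, also lay low at 3.30 and 3.90. Spred1 had the densest start (14.6), followed by Fgf18 (12.1) and Fgfr1 (11.6). Density and occupancy were not separable further, since the values for members just above the threshold of 3 were mixed. Fgf11 (4.20) had a region in both replicates at its start, Fgf22 (3.80) had peaks of both that did not overlap, and Fgf6 had none.

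**Figure D2:**
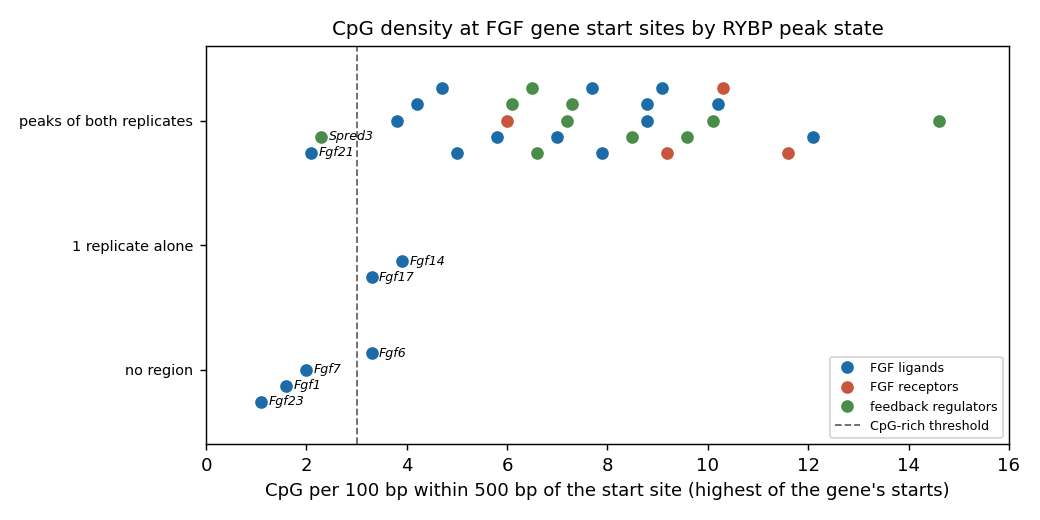
CpG per 100 bp within 500 bp of the start (horizontal axis, the highest of a gene's starts) for the 34 members, in rows by whether peaks of both replicates, of 1 replicate or no region lay within 2.5 kb, and coloured by class. Points without a region lie between 1.10 and 3.30, all of them ligands, and those with peaks of both replicates between 2.10 and 14.6.

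The ligand genes Fgf4, Fgf5 and Fgf8 had start peaks of both replicates. Fgf8, which drives mesoderm migration from the streak, reached 4.06-fold at its start in replicate 1 and 4.43-fold in replicate 2, the order in which value pairs are given from here on. Its locus held 5 regions, 4 of them in both replicates, and all 5 together covered 65.0% of its 11118 bp. The most distant of them upstream lies on the start of the neighbour Npm3, and its replicate 2 peak (4.94) lay outside the locus. Fgf4, made by pluripotent cells, had 3.98 and 4.82, with 2 narrow further regions upstream in 1 replicate each. Fgf5, a marker of the epiblast, had 4.09 and 4.82 at its start, and a second, intronic region (4.43) was called in replicate 2 alone. All 3 were higher in replicate 2.

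Fgf8 shares its subfamily with Fgf17 and Fgf18, and the members differed. Fgf18, a ligand of bone and lung growth, had 4.67 and 4.54 at its start and a second region in an intron, 22739 bp from the nearest start, with 2.85 and 3.24. Fgf17 had no replicate 1 peak at its start. The region over the Fgf17 start rested on replicate 2 (3.40), and the only region of its locus in both replicates (3.55 and 3.60) lay at the far end of the gene, over a start of Epb4.9. The replicate 1 peak of that region (3.55) lay outside the locus. Occupancy at Fgf17 itself was thus seen in 1 of 2 replicates.

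Of the ligands related to Fgf7, which mostly signal from mesenchyme to epithelium, Fgf3 and Fgf10 were occupied and Fgf7 was not. Fgf3 had 3.93 and 5.21 in a region of 6215 bp, which covered 54.7% of the locus. Fgf10, needed for limb and lung buds, had 3.28 and 3.48 with −log10 q of 1.73 and 1.92, close to the lowest values in the lists (1.00). The nearest region to the Fgf7 locus was 60766 bp away. Fgf22 had a region in replicate 2 alone (3.25).

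Fgf9 and Fgf20, secreted ligands of one subfamily, were both occupied. Fgf9 had 4.05 and 5.34 in the widest start region of any member, 6963 bp. Fgf20 had 4.46 and 4.20 in 1071 bp, the narrowest own-start region in both replicates, which also covers a start of Efha2. A second region of Fgf20 (3.51 and 3.60) lay 259 bp from its other annotated start. Of the pair Fgf1 and Fgf2, which lack a classical signal peptide, Fgf2 had 3.23 and 3.62 at −log10 q of 1.98 and 2.20, whereas Fgf1 had no region within 33963 bp of its locus.

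The intracellular FGF-like proteins, which bind sodium channels rather than receptors, spanned the range of the members. Fgf12 had 4.22 in replicate 1 and 6.48 in replicate 2, the latter the highest value at any member start, in a region of 3353 bp that ran upstream of the gene. The replicates disagreed on its extent, since replicate 1 peaks covered 100% of it and replicate 2 peaks 35.3%. Fgf11 had 3.87 and 4.46 in a region of 6632 bp shared with the start of Tmem102. Regions covered 72.2% of its 10790 bp locus, the largest share of any member. That share includes a region of 724 bp in replicate 1 alone and part of one over the start of Chrnb1. The replicate 2 peak of the Chrnb1 region lay outside the locus. Fgf14, the longest ligand gene at 699221 bp, had 1 region (3.15) in replicate 1 alone, 13 bp from one of its starts.

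The hormone-like ligands, which act at a distance through Klotho co-receptors, gave 3 different pictures. Fgf15, an intestinal regulator of bile acid synthesis that is also made in the embryo, had 3.77 and 5.57 at its start. Fgf21, a liver hormone of fasting, had a small region of 528 bp at 1560 bp from its start, with 3.19 and 3.23, the narrowest region in both replicates at any member. Fgf23, a bone hormone of phosphate balance, had a region in both replicates (3.46 and 4.16) that overlapped an exon 7180 bp from the start, and none at the start itself, whose sequence is printed above.

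Ligand genes that are neighbours on their chromosome gave contrasting maps. In the 67871 bp from 5 kb upstream of Fgf3 to the end of Fgf15 on chromosome 7, which also hold Fgf4, 9 regions covered 22.8% of the sequence. The 3 in both replicates were those over the starts of Fgf3, Fgf4 and Fgf15, and the other 6 were in 1 replicate. In the 70867 bp that hold Fgf6 and Fgf23 on chromosome 6, 1 region covered 1.62%. The clusters are of similar length, and the starts of the first are CpG-rich (5.79 to 8.79 CpG per 100 bp) while those of the second have 1.10 and 3.30.

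All 4 receptor genes, which encode the tyrosine kinases that bind secreted FGFs, had a start region in both replicates. Fgfr1, the main receptor of early mesoderm, had 2 of them. The one over its most upstream start had 3.03 and 3.51, and the one over an internal start had 4.60 and 5.44 with −log10 q of 9.24 and 9.85. The internal start thus exceeded the upstream one in both replicates. Fgfr3, a receptor of growing cartilage, had 4.28 and 4.27 over its start, in a region of 4277 bp, and 5 further regions each in 1 replicate. Fgfr4 had 3.52 and 3.02, the lowest replicate 2 value at any member start, and replicate 1 peaks covered 29.2% of that region.

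Fgfr2 needed care, since 1 of its 29 annotated transcripts starts in Ctbp2 and stretches the gene to 3009069 bp. On that body 37 regions were counted, 17 of them in both replicates, and 17 lay on starts of other genes. Without that transcript the gene is 104297 bp long and held 3 regions, of which the one over its start was in both replicates, with 3.95 and 4.44 in 3337 bp. The trimmed gene was used for widths and for places of regions, and the count of members was the same with either body.

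**Figure D3:**
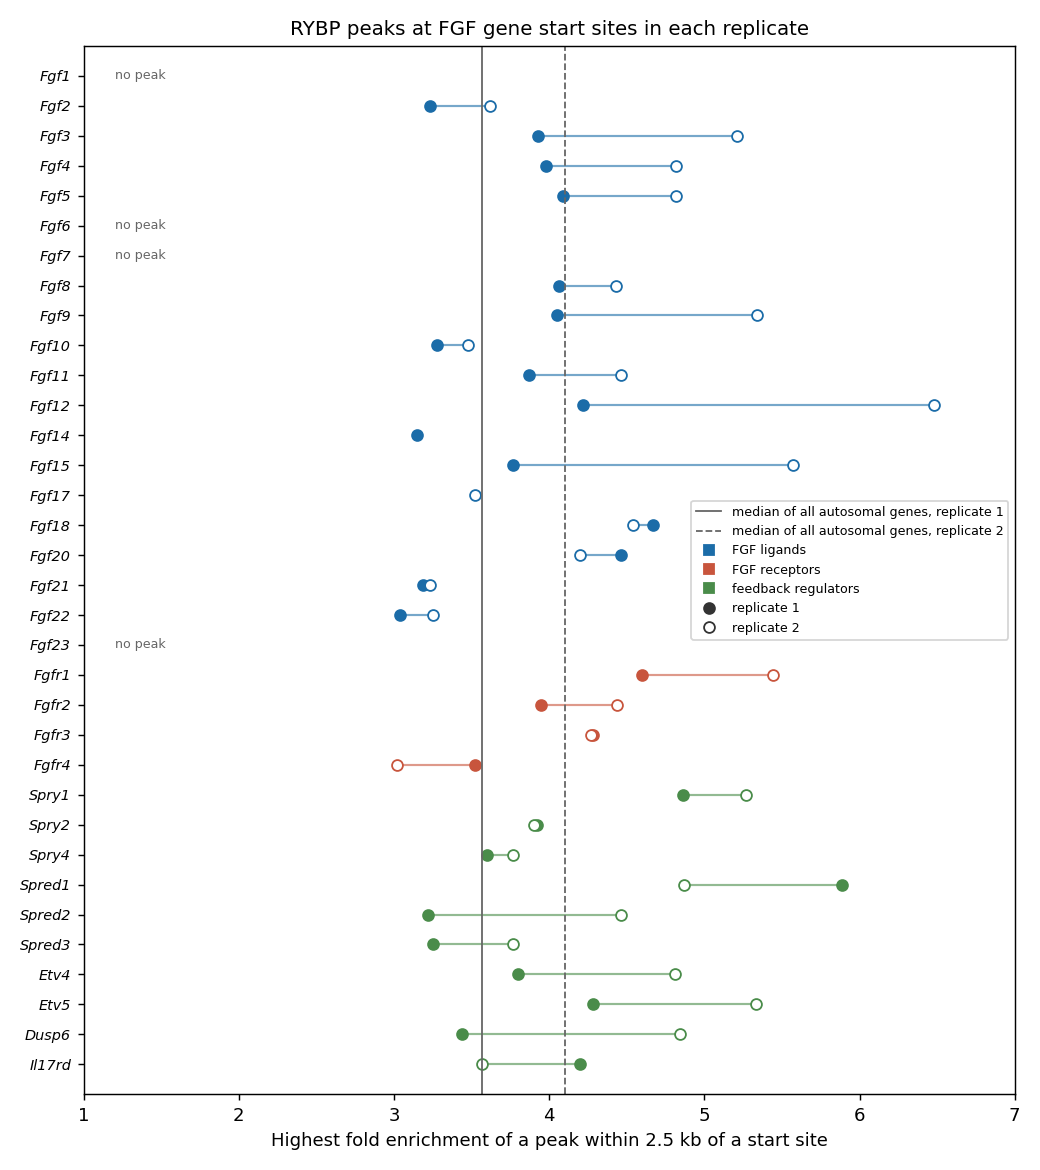
Highest fold enrichment (horizontal axis, linear ratio) of a peak within 2.5 kb of a start of each of the 34 members, in replicate 1 (filled) and replicate 2 (open), joined by a line where both had a peak and coloured by class. Vertical lines mark the medians of the 8241 autosomal genes with start peaks of both replicates, 3.57 and 4.10. Fgf12 reaches 6.48 in replicate 2 and Spred1 5.89 in replicate 1, and Fgf1, Fgf6, Fgf7 and Fgf23 have no peak.

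Each of the 10 feedback regulators had peaks of both replicates within 2.5 kb of a start, and at 8 the region covered a start itself, Spred3 and Il17rd being the others. Spred1, an inhibitor of Ras activation, had 5.89 in replicate 1, the highest replicate 1 value of any member, and 4.87 in replicate 2. Spred2 had 3.22 and 4.46 at its start, and a second region 3756 bp upstream had 3.10 and 4.38. Spred3 differed from both, with a CpG-poor start and its strongest regions off the start: one 304 bp upstream of the start (3.03 and 3.77) and one over the start of the neighbour Ggn (3.25 and 3.26).

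Sprouty genes, which encode inhibitors of receptor tyrosine kinase signalling, each had 1 region in both replicates, over the start. Spry1 had 4.86 and 5.27, with replicate values that were both above those of Spry2 (3.92 and 3.90) and Spry4 (3.60 and 3.77). At Spry4 the region also covers the start of 9630014M24Rik. Spry2 had 3 further narrow regions and Spry4 had 1, all in 1 replicate.

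Etv4 and Etv5 encode ETS transcription factors that are induced by FGF and act on its targets. Etv5 had 4.28 and 5.33 and Etv4 had 3.80 and 4.81 at the start. Etv4 also had a weaker region in an intron, 12252 bp from the start, in both replicates (2.89 and 3.16). Dusp6, the ERK phosphatase often used as a readout of FGF signalling, had 3.44 and 4.84 in a region of 3347 bp. Il17rd had 4.20 and 3.57 in a region that began 27 bp inside the gene. Dusp6 was higher in replicate 2 and Il17rd in replicate 1, by amounts as large as the differences between many members.

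The spread between replicates limits any ranking of members. Over the 28 members with start peaks of both replicates, replicate 2 was higher at 21 and replicate 1 at 7, with a median difference of 0.448. Across all autosomal genes with such peaks, replicate 2 was also higher at 6411 of 8241, so that the direction is one of the lists as a whole. The order of the members agreed only in part, with a Spearman rho of 0.54 and a Pearson r of 0.51 over genes that share the same 2 libraries. Medians by class were 3.95 and 4.50 for 14 ligands, 4.12 and 4.35 for 4 receptors and 3.86 and 4.63 for 10 feedback regulators. The class with the highest median thus differed between the replicates, and no order of the classes by fold enrichment held in both. Over all 8241 genes the quartiles ran from 3.19 to 4.03 in replicate 1 and from 3.60 to 4.75 in replicate 2, a range that holds each class median except that of receptors in replicate 1.

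The regions of the members were wide. The 25 regions over a member's own start in both replicates had a median width of 2730 bp, against 1509 bp for 6627 such regions of all autosomal genes. At least 2500 bp was reached by 13 of 25 (52.0%), against 20.9% of all, a threshold set after the widths had been seen. The 13 were those of Fgf3, Fgf4, Fgf8, Fgf9, Fgf11, Fgf12, Fgf15, Fgfr2, Fgfr3, Spry4, Spred2, Etv4 and Dusp6. Merged width is a union of 2 lists and so is at least as wide as either peak, and at 10 own-start regions in both replicates peaks of replicate 1 covered less than 60% of it. Over the 31 loci with a region, 3203 bp were covered at the median, against 1219 bp over all autosomal loci with one, or 11.2% of the locus against 3.62%. The share of a locus depends on gene length. Its median was 15875 bp at members with a start region and 24231 bp at all autosomal genes with such a region. These width comparisons were not limited to CpG-rich starts. The medians of covered length moved to 1706 and 1067 bp with peaks of replicate 1 alone and to 2511 and 1023 bp with those of replicate 2 alone.

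**Figure D4:**
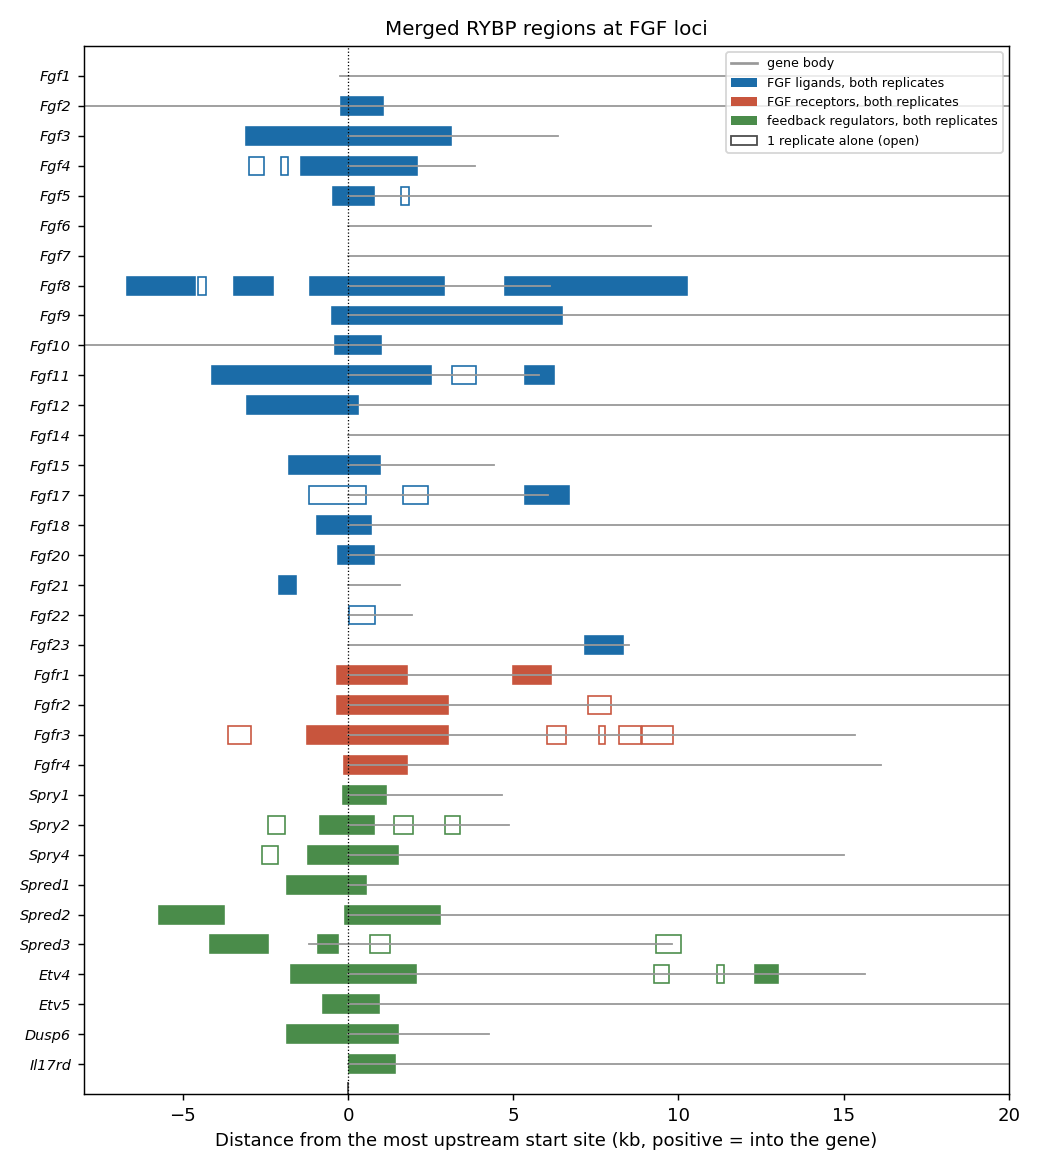
Merged RYBP regions (boxes) at the 34 loci by distance from the most upstream start (horizontal axis, kb, from −8 to 20, positive into the gene), filled where peaks of both replicates were found and open where 1 replicate alone had a peak, with gene bodies as grey lines and Fgfr2 drawn without its long transcript. Filled boxes gather at 0 and reach 6963 bp at Fgf9, and open boxes are mostly narrow and away from the start. Regions farther than 20 kb into a gene are not drawn.

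Regions over starts and elsewhere differed in how often both replicates had called them. The member loci held 66 regions, of which 27 covered an own start and 25 of those (92.6%) were in both replicates, against 76.3% of start-site regions of all autosomal genes. Of the other 39 regions, 14 (35.9%) were in both replicates, against 23.5% of the regions off a start at all autosomal loci, which thus show the same contrast. These 39 included 4 on starts of other genes, all 4 in both replicates. Regions of that kind were left out of the 23.5%, so the shares are not of like sets. The others were 14 on exons (4 in both replicates), 12 in introns (3 in both) and 9 upstream (3 in both). At the receptors none of the 9 regions off the starts was in both replicates.

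Short letter motifs were looked for on both strands in windows from 250 bases before to 50 after the most upstream start. CCGGAAG, a letter form of the site bound by ETS factors such as Etv4 and Etv5, was in the windows of 0 of 34 members and of 11.1% of all 21275 autosomal genes. AGATAA, a form of the GATA site, was in those of Fgf23 and Spred3 and of 10.1% of all genes, and can be read in lower case in the Fgf23 window above. These are matches of letters in one window and say nothing of binding.

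Other genes of the pathway were set beside the members from a list of 47 autosomal genes. A merged region was at 43 of them (91.5%) and in both replicates at 32 (68.1%), against 58.7% and 40.1% of all autosomal loci. At start sites the counts were the same, against 83.1% and 60.5% of autosomal genes with a CpG-rich start. Most genes of the list had such a start, and the distance to that background was smaller than to all loci. Genes named first in a group are those whose region had the largest fold enrichment when the smaller of both replicates is taken. The other ERK response genes had a region at 12 of 12 and in both replicates at 11. Dusp5, a nuclear ERK phosphatase, was first on that measure with 4.90 and 6.12, although Dusp7 (5.65) and Egr2 (5.26) were higher in replicate 1. Co-receptors and modulators had a region at 11 of 13 and in both replicates at 9, with none at Klb and Fgfbp1. Fgfrl1, a decoy receptor gene, was first with 4.49 and 4.63, although Hs6st1 had 4.75 in replicate 2. Adaptors had a region at 9 of 10 and in both replicates at 7, with none at Shc1. Sos2, a Ras exchange factor, was first with 4.54 and 4.73, and Frs2 had 5.01 in replicate 2 without a peak in replicate 1. The genes of the Ras-ERK cascade had a region at 11 of 12 and in both replicates at 5 (41.7%), near the 40.1% of all loci. Ksr1, a scaffold of the cascade, was first with 3.95 and 4.36, and Nras had no region. No test was made between these lists.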

How the data were processed

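RYBP ChIP-seq peak lists of 2 replicates were used. The inputs were not analysed here. According to the labels and methods, reads were aligned to mm9 with Bowtie 1.1.2b, duplicates were removed and broad peaks were called with MACS2 2.0.10 (broad cutoff 0.1) in each replicate. The authors deposited for each peak a fold enrichment (linear ratio to local background), −log10 p-value and −log10 q-value, and a score equal to 10 times −log10 q rounded down. Only fold enrichment and −log10 q were printed.

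The deposited merged list held positions alone and equalled the union of both lists once replicate 2 starts were moved by 1 bp, so positions are certain to within 1 bp. Loci and starts came from the GENCODE annotation of the same build. Overlap meant at least 1 bp. Overlaps and unions were computed with custom code in Python 3.11.15, and sequences were read with pyfaidx 0.9.0.4. The interval code was checked against bedtools 2.31.1 on simulated intervals.

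Members and pathway lists were chosen with earlier results of these data known. Every member is named, with values for those with regions in both replicates. Pathway genes are named where they ranked first in their group or had no region, and Dusp7, Egr2, Hs6st1 and Frs2 were added after their values were seen. Sequence windows, planned at region midpoints, were moved to starts to leave out transcribed untranslated sequence, and the window planned for the receptors is not reported here. Hs6st2, Araf and Dusp9 are not autosomal and were left out, and Hras was found as Hras1.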

Additional observations from a re-analysis of the deposited data

How the results depend on the processing

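All 36 counts recomputed under other settings stayed within 1.5 times the reported ones, members and pathway genes alike. That bound is loose, since even a fall from 29 to 21 loci lies within it. Loci with a region ranged from 28 to 31 and starts with peaks of both replicates from 24 to 28. The 28 loci were those at −log10 q of at least 2, where the share of all autosomal loci went from 58.7% to 48.8%. The fewest starts remained when −log10 q of at least 2 was asked for, which lost Fgf2, Fgf10, Fgf21 and Fgf22, while the share of all autosomal genes went from 38.7% to 29.4%. Asking that each replicate cover 50% or more of a region left 21 of 29 loci. Leaving out regions over starts of other genes, chosen after seeing the data, left 26 of 29. Under neither of these settings was the share of all autosomal genes computed, so the losses have no background beside them. The covered length per locus did move: from 3203 bp to between 1706 and 2511 bp when 1 replicate was left out, and to 2566 bp at −log10 q of at least 2, as fewer or shorter peaks enter the union. The median over members of the highest fold enrichment per locus was 4.29, between 3.97 and 4.46 for the replicates alone. No paired analysis was possible because no input file was analysed here and no result comes from a test. The peak lists give no read counts at a locus, so an absent peak may lie below detection.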

Other observations

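The X-linked ligand genes Fgf13 and Fgf16 were not among the autosomal members. Fgf13, an intracellular FGF-like protein, had 2 regions, both found in both replicates, with highest fold enrichments of 4.09 and 4.13. Fgf16, of the Fgf9 subfamily, had 1 region in both replicates with 3.58 and 4.47. Their starts held 9.99 and 7.59 CpG per 100 bp, within the range of the occupied autosomal members.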
